A study of Mus musculus with 39 samples.

Results

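The genes described here are 50 factors that build ribosomes in the nucleolus, taken by symbol from a table of 20333 mouse transcripts with 1 row per symbol. All 50 had a row, and all 50 passed the filter on low counts in ribosome footprints, in RNA and in their ratio. The tumors came from TH-MYCN mice, which carry a MYCN transgene under a tyrosine hydroxylase promoter and develop neuroblastoma, a tumor of sympathetic nerve precursors. Ribosome profiling, which sequences the stretches of messenger RNA covered by ribosomes, was done on 20 tumors from 20 mice, and RNA sequencing on the same extracts of 19 of them. The 4 groups held 5 mice each. The combination mice (PD with a mouse number) ate a diet without proline and arginine and received difluoromethylornithine (DFMO), an irreversible inhibitor of ornithine decarboxylase, the enzyme that starts polyamine synthesis. The DFMO mice (D) ate the control diet and received the drug, the diet mice (P) ate the diet without proline and arginine and received no drug, and the control mice (C) ate the control diet with no drug. All 4 groups carried the transgene (labelled MYCN Amplified), so no comparison was made with MYCN-free tissue. The labels read here do not state dose, duration or age.

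Ribosome production starts with transcription of the ribosomal DNA repeat by RNA polymerase I. Small nucleolar ribonucleoproteins (snoRNPs) then guide pseudouridylation (H/ACA class) and 2′-O-methylation (C/D class) of the precursor RNA. A large assembly called the small subunit processome folds and cuts the part that becomes the small subunit, and a further set of helicases, GTPases and scaffold proteins assembles the large subunit. Many of these genes are known targets of MYC family factors, which bind the hexamer CACGTG (the E-box), and polyamines are abundant in the ribosome itself.

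The promoter sequences below are shown for that hexamer, which was searched for on both strands (it reads the same on each). A RefSeq promoter on GRCm38.p6, 250 bases before to 50 after a transcription start, was found for 44 of the 50 genes. CACGTG was present for 11 of these 44 genes (25.0%), against 14 of 95 other ribosome biogenesis genes (14.7%), 1119 of 9563 genes tested in footprints (11.7%) and 2187 of 27025 genes in the promoter table (8.09%). The 11 genes were Imp4, Ltv1, Mdn1, Nop2, Pes1, Pno1, Rrn3, Tsr1, Utp20, Utp4 and Wdr43. Nop2, Pes1, Utp20 and Rrn3 are printed with Ddx21, which has no match in this window and had the largest fall in footprints. Capitals mark the hexamer.
Nop2: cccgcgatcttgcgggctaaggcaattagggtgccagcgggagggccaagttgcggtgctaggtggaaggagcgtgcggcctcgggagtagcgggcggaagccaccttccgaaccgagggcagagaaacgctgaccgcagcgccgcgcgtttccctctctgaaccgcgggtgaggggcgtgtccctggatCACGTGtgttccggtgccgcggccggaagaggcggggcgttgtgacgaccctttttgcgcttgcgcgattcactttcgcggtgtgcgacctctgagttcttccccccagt
Pes1: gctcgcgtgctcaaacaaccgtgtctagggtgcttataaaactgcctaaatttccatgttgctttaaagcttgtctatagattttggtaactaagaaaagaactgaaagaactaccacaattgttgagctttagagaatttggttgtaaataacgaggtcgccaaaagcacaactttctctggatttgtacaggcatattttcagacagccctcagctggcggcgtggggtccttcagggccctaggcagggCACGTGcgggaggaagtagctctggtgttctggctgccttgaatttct
Utp20: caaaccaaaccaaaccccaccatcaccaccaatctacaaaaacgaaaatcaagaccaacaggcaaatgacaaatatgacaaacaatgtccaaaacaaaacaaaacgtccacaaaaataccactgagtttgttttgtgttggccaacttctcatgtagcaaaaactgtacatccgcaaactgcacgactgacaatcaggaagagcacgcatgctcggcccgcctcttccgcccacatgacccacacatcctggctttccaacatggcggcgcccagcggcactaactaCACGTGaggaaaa
Rrn3: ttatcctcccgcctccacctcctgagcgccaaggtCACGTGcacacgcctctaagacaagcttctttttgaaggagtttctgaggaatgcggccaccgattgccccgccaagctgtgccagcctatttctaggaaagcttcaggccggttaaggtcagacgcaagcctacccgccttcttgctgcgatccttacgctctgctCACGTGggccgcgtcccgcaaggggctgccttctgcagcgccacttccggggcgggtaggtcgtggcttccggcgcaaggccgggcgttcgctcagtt
Ddx21: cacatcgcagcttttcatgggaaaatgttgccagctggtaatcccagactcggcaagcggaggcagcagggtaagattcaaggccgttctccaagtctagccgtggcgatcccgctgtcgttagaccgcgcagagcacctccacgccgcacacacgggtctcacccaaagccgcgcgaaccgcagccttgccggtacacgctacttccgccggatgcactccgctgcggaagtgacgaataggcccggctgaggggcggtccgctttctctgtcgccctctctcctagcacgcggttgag
The Nop2 promoter lies at chr6:125131633-125131932 on the plus strand, with the hexamer starting 60 bases before the transcription start. The Pes1 promoter lies at chr11:3963725-3964024 on the plus strand, with the hexamer starting 2 bases after the start. That of Utp20 lies at chr10:88826765-88827064 on the minus strand, with the hexamer 37 bases after the start. Rrn3, at chr16:13780449-13780748 on the plus strand, is the member with 2 copies, which start at -215 and -48 from the transcription start. The Ddx21 window is chr10:62602249-62602548 on the minus strand. In footprints of combination against control tumors, 7 of the 11 genes with the hexamer were called lower (median log2 fold change -0.54), and so were 25 of the 33 genes with a promoter and no hexamer (median -0.54). In RNA the medians were -0.014 for the 11 genes (5 lower and 1 higher) and -0.90 for the 33 (20 lower and 1 higher), and without the 4 low-complexity RNA libraries (those with counts for the fewest transcripts) they were -0.185 and -0.66. In efficiency the medians were -0.30 (3 lower, none higher) and 0.37 (3 lower and 13 higher), and without those libraries -0.305 (1 lower) and 0.21 (none called). The fits without those libraries kept C5812 as the only control RNA library. No test was made of these splits. In footprints Rrn3, with 2 copies, was among those not called, and Ddx21, with none, fell the most. A match is a description of the letters and not of binding.

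Total counts ran from 2137838 to 12409644 per footprint library, with the control libraries among the shallowest (2137838 to 4570191), and from 10005384 to 51538191 per RNA library. In RNA, 4 libraries held counts for fewer transcripts than the rest (C5696, C5778, C5781 and P5828 with 8806 to 13387, against at least 14977) and are called low-complexity here. These were also the 4 shallowest RNA libraries (10005384 to 22906866 counts, against at least 27751456 in the rest). Among the RNA libraries low complexity therefore went with low depth, and C5696, C5778 and C5781 are control libraries. The footprints of C5696 and C5781 held counts for 13702 and 13517 transcripts, from 2137838 and 2492053 counts. In RNA the same mice had 13385 and 8806 transcripts, from 16561237 and 10005384 counts. The part of depth in the low complexity was not tested. In 3 other RNA libraries (D135, D5823 and PD5732) the departures from the group mean had the most negative correlations with those of the same mouse's footprints (r = -0.125, -0.18 and -0.321 across 11847 genes, which are not independent). D5802 (r = -0.03), which was kept, and the low-complexity C5696 (r = -0.013) were also below 0. The footprints of the group most like the RNA of D135, D5823 and PD5732 were those of D5747, D5747 and PD5825. Such a mismatch was not confined to them, as 10 of 19 RNA libraries were closest to their own mouse's footprints. PD5736 and PD5746 were closest to PD5732, D5802 to D5806, P5785 to P5784, C5696 to C5812 and C5781 to C5696. Whether a library carries another mouse's label, or came from degraded RNA, was not tested. These 3 and the 4 low-complexity libraries are the 7 doubted libraries. RNA of the control mouse C5840 was not analysed here. For the neuroblast label, 11 of 11 neuroblast markers (Hand2, Th, Dbh and others) had counts in every footprint library, with summed levels of 1734 to 2460 CPM (counts scaled to library size) in combination, 1539 to 1983 in DFMO, 1448 to 1845 in diet and 1631 to 2107 in control tumors. Marker sums of other cell types had different ranges between groups, given here without a test. Summed endothelial markers (12 genes, all detected) were 107 to 197 CPM in combination, 67.4 to 167 in DFMO, 157 to 253 in diet and 165 to 269 in control tumors. Summed macrophage markers (12 genes, all detected) were 472 to 610, 540 to 629, 571 to 796 and 694 to 1009 CPM in the same order. Summed erythroid markers (6 genes) were 2653 to 13250 CPM in combination, 785 to 1914 in DFMO, 13300 to 45020 in diet and 3663 to 13430 in control tumors. Summed Schwann cell markers (7 genes, with S100b at 0 in all control libraries) were 71.6 to 107.4 CPM in combination, 57.5 to 116.4 in DFMO, 46.6 to 90.8 in diet and 44.4 to 58.5 in control tumors, so that every combination mouse was above every control mouse. Summed exocrine pancreas markers (7 genes) were 251.4 to 2550 CPM in combination, 10.8 to 55.1 in DFMO, 8.32 to 55.6 in diet and 48.9 to 1547 in control tumors. For fibroblast markers (8 genes, all detected) the sums were 1036 to 2184, 654 to 1908, 1163 to 3462 and 1192 to 2614 CPM in the same order. T and B cell markers (8 genes, with Cd3g at 0 in all control libraries) summed to 5.51 to 8.71, 5.43 to 9.08, 7.78 to 14.53 and 9.47 to 18.4 CPM. In the macrophage sum and the T and B cell sum, every combination and DFMO mouse was below every control mouse. In the erythroid sum every DFMO mouse was below every control mouse. Combination mice did not overlap diet or DFMO mice in the erythroid and exocrine pancreas sums. The part of these cells in the results that follow was not tested. In bulk tumors, fewer cells of a type and less RNA per cell cannot be told apart.

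In the combination group, ribosome footprints on most of the 50 genes fell. Of the 50, 37 were called lower and 1 higher than in control tumors (edgeR quasi-likelihood test, Benjamini-Hochberg adjusted over 12095 genes, called below 0.05), where 15.5% of all genes tested were called lower and 16.7% higher. The median log2 fold change of the 50 genes was -0.54, against 0.016 for all genes tested. In 32 of the 50, every combination mouse was below every control mouse, which held for 10.1% of all genes. Together the 50 genes took 0.770% ± 0.036 of footprint counts in combination tumors, 0.864% ± 0.061 in DFMO tumors, 0.967% ± 0.062 in diet tumors and 1.02% ± 0.085 in control tumors (SD, n = 5 each). After every footprint library was thinned to 2137838 counts, 35 genes were lower and 1 higher.

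**Figure D1:**
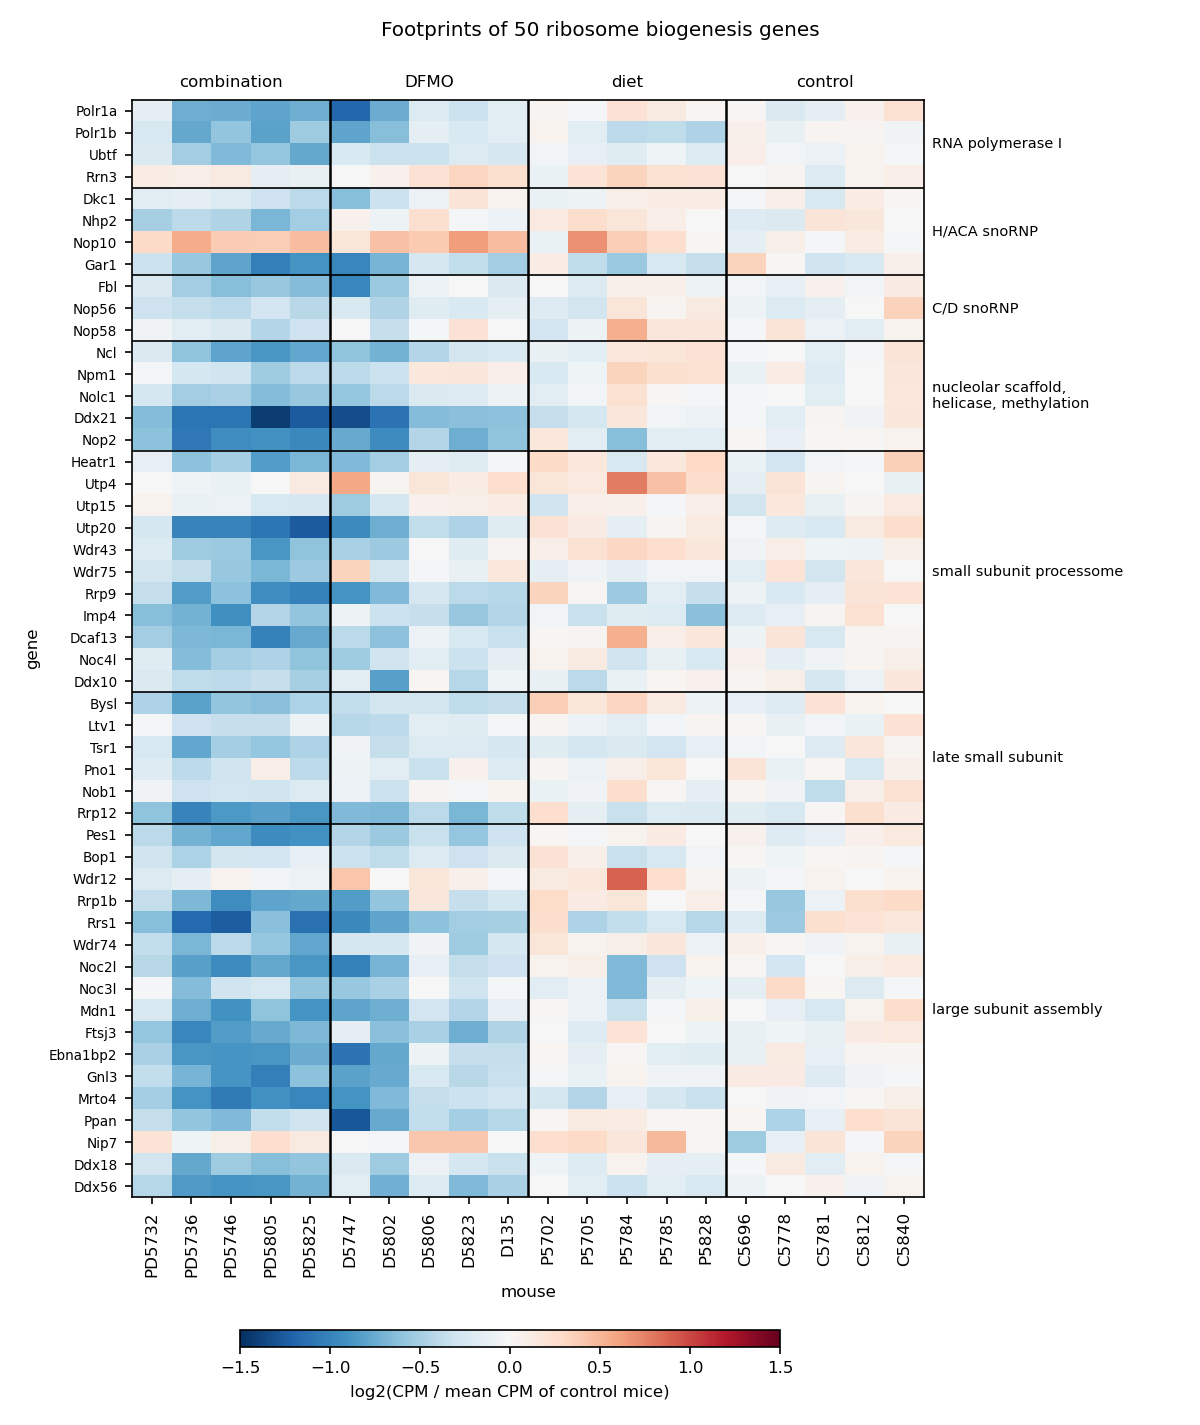
Each cell is the log2 ratio of a gene's footprint CPM in 1 mouse to its mean in the 5 control mice, for 50 genes (rows, by role) and 20 mice (columns, by group). The median over the 50 genes was -0.25 in PD5732 and -0.57 to -0.61 in the other combination mice, -0.16 to -0.52 in DFMO mice, -0.061 to 0.070 in diet mice and -0.071 to 0.093 in control mice.

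Among the factors of RNA polymerase I, 3 of 4 genes fell in combination against control tumors. Ubtf, the upstream binding factor that keeps ribosomal DNA open, had 98.4, 80.0, 72.4, 76.9 and 67.1 CPM in combination mice, against 123, 111, 108, 119 and 112 CPM in control mice. Every combination mouse was below every control mouse, and the fitted level was 1.45-fold lower (log2 fold change -0.54 ± 0.092 (SE), adjusted p = 0.000187). Polr1b, which with Polr1a forms the catalytic core of the polymerase, had 74.98, 52.3, 59.0, 51.1 and 61.4 CPM in combination mice, against 93.8, 82.0, 91.2, 91.1 and 85.8 CPM in control mice. The groups did not overlap, with PD5732 the closest to the controls, and the level was 1.49-fold lower (log2 fold change -0.57 ± 0.13 (SE), adjusted p = 0.00252). Polr1a itself was also called lower (-0.60, adjusted p = 0.00626). Rrn3, the factor that links the polymerase to its promoter, was not called and had 89.7, 88.5, 90.6, 75.1 and 76.6 CPM in combination mice, against 82.9, 85.0, 71.7, 86.0 and 88.8 CPM in control mice, 2 overlapping ranges (log2 fold change 0.021, 95% interval -0.17 to 0.21).

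The H/ACA core split in direction. Nhp2, an RNA-binding subunit of the pseudouridylation complex, had 54.7, 58.9, 56.7, 48.2 and 53.9 CPM in combination mice, against 67.8, 66.7, 88.2, 87.4 and 77.2 CPM in control mice. No combination mouse reached the lowest control mouse, and the level was 1.42-fold lower (log2 fold change -0.51 ± 0.10 (SE), adjusted p = 0.000643). Gar1, another core subunit, had 54.98, 46.5, 39.9, 33.7 and 37.1 CPM in combination mice, against 87.0, 69.7, 55.9, 58.8 and 72.8 CPM in control mice, and was 1.62-fold lower (log2 fold change -0.69 ± 0.16 (SE), adjusted p = 0.00195). The groups nearly met, at PD5732 and C5781. Nop10, the small subunit that holds the synthase and Nhp2 together, was the 1 member called higher, with 114, 138, 121, 120.5 and 129 CPM in combination mice, against 84.7, 98.9, 91.2, 101 and 91.4 CPM in control mice. Every combination mouse was above every control mouse, and the level was 1.33-fold higher (log2 fold change 0.41 ± 0.12 (SE), adjusted p = 0.011). The synthase Dkc1 was not called (-0.24, adjusted p = 0.137).

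Of the 3 C/D proteins, the methyltransferase and 1 scaffold fell. Fbl (fibrillarin), the 2′-O-methyltransferase, had 428, 348, 318, 335 and 318 CPM in combination mice, against 484, 458, 519.6, 485 and 541 CPM in control mice, and was 1.42-fold lower (log2 fold change -0.51 ± 0.14 (SE), adjusted p = 0.00664). PD5732 was again the highest of its group and remained below all controls. Nop56, a scaffold of the same particle, had 418, 406, 395, 426 and 389 CPM in combination mice, against 491, 452, 473, 521 and 658 CPM in control mice, and was 1.27-fold lower (log2 fold change -0.35 ± 0.11 (SE), adjusted p = 0.0166). The ranges did not overlap, but the call rested on 1 mouse: without C5840 the log2 fold change was -0.25 (adjusted p = 0.0711). Its partner Nop58 was not called (-0.23, adjusted p = 0.172).

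The nucleolar scaffold, helicase and methylation group held the deepest fall of the 50. Ddx21, an RNA helicase of the nucleolus that acts in ribosomal DNA transcription and precursor processing, had 204, 150.2, 150.2, 119.6 and 135.2 CPM in combination mice, against 318, 287, 331, 310.5 and 361 CPM in control mice. It was 2.12-fold lower (log2 fold change -1.08 ± 0.15 (SE), adjusted p = 2.09e-05), with a wide gap between the groups. Nop2, which methylates a cytosine of the large subunit RNA, had 99.5, 72.8, 80.0, 81.4 and 78.5 CPM in combination mice, against 157, 140.1, 154, 155 and 159 CPM in control mice. It was 1.85-fold lower (log2 fold change -0.89 ± 0.12 (SE), adjusted p = 2.1e-05), again without overlap. Ncl (nucleolin), with 1236, 949, 833, 786 and 837 CPM in combination mice and 1418, 1431, 1280, 1418 and 1644 CPM in control mice, and Nolc1, a snoRNP chaperone, were called lower as well (-0.63 and -0.49). Npm1 (nucleophosmin), an abundant nucleolar chaperone, was not called (-0.29, adjusted p = 0.103). Npm1 has processed pseudogenes in the mouse genome, and how shared reads were counted is not stated in the labels, so its level is uncertain.

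**Figure D2:**
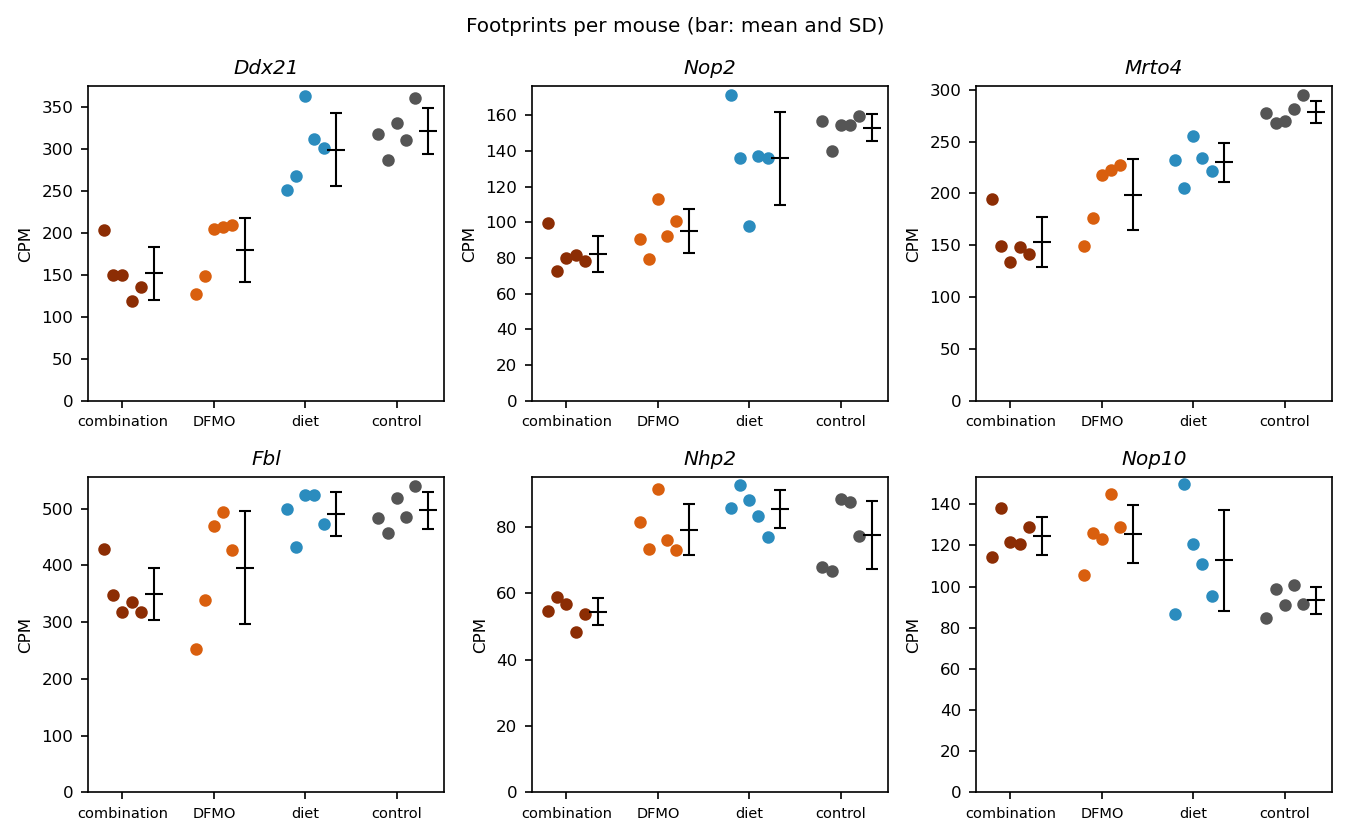
Footprint CPM of 6 genes, 1 point per mouse, with the mean and SD of 5 mice beside each group. Ddx21, Nop2 and Mrto4 were lower in both DFMO-treated groups than in every control mouse, Nhp2 was low in the combination group, and Nop10 was higher in both DFMO-treated groups than in control mice.

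For the small subunit processome, 9 of 11 genes were called lower in combination against control tumors, and the group's median log2 fold change was -0.53. Dcaf13, the counterpart of the yeast processome protein Sof1, had 43.8, 39.5, 39.1, 31.3 and 37.3 CPM in combination mice, against 60.0, 72.1, 53.5, 64.9 and 64.8 CPM in control mice, and was 1.65-fold lower (log2 fold change -0.72 ± 0.12 (SE), adjusted p = 0.000136). Utp20, a very large scaffold protein of the same particle, had 106, 63.1, 63.2, 59.7 and 53.3 CPM in combination mice, against 124, 111, 108, 139 and 152 CPM in control mice, and was 1.84-fold lower (log2 fold change -0.88 ± 0.16 (SE), adjusted p = 0.000393). In both genes the groups did not overlap, although the Utp20 level of PD5732 lay just under that of the lowest control mouse, C5781. Rrp9, a protein of the U3 snoRNP, fell by 0.73 on the log2 scale, and the U3-associated Imp4 by 0.65. Heatr1, Wdr43 and Wdr75, which bind the first stretch of the precursor, fell by 0.53, 0.54 and 0.48. Utp4 and Utp15, which belong to the same subcomplex, were not called (-0.005 and -0.12).

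In late small subunit maturation, 3 of 6 genes were called lower. Rrp12, a factor in nuclear export of the subunits, had 81.7, 62.0, 68.7, 71.0 and 67.7 CPM in combination mice, against 109, 105, 126, 146 and 135.2 CPM in control mice, and was 1.77-fold lower (log2 fold change -0.83 ± 0.12 (SE), adjusted p = 3.53e-05). Bysl, the counterpart of yeast Enp1, had 34.3, 27.1, 31.4, 30.5 and 34.0 CPM in combination mice, against 43.5, 41.4, 55.1, 49.1 and 47.3 CPM in control mice, and was 1.50-fold lower (log2 fold change -0.59 ± 0.10 (SE), adjusted p = 0.000243). All combination mice lay below all control mice in both genes. Tsr1, a GTPase-like assembly factor, was the third called gene (-0.51, adjusted p = 0.000533). The factors of the last steps, the endonuclease Nob1 (-0.23), its partner Pno1 (-0.22) and the export adaptor Ltv1 (-0.21), were below 0 and not called.

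Large subunit assembly was the biggest group, and 14 of its 17 genes were called lower (median log2 fold change -0.69). Mrto4, which holds the place of the ribosomal stalk during assembly, had 195, 149, 134, 148 and 142 CPM in combination mice, against 277, 268, 269.7, 281 and 295 CPM in control mice, and was 1.81-fold lower (log2 fold change -0.86 ± 0.12 (SE), adjusted p = 2.05e-05). Pes1, the pescadillo protein of the PeBoW complex, had 120.0, 96.8, 92.3, 82.5 and 84.9 CPM in combination mice, against 166, 139, 146, 168 and 176 CPM in control mice, and was 1.67-fold lower (log2 fold change -0.74 ± 0.10 (SE), adjusted p = 2.61e-05). Neither gene's groups overlapped. The 3 PeBoW subunits did not have equal values: Bop1 was -0.29 (adjusted p = 0.0274) and Wdr12 was -0.082 (adjusted p = 0.659, not called); the difference between the subunits was not tested. Rrs1, which brings the 5S particle into the precursor, was -0.93, and Ebna1bp2, Gnl3 (nucleostemin) and the remodelling ATPase Mdn1 were -0.77, -0.70 and -0.65. The helicases Ddx18 and Ddx56 were -0.56 and -0.74. Nip7 (0.12) and Noc3l (-0.35) were not called.

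**Figure D3:**
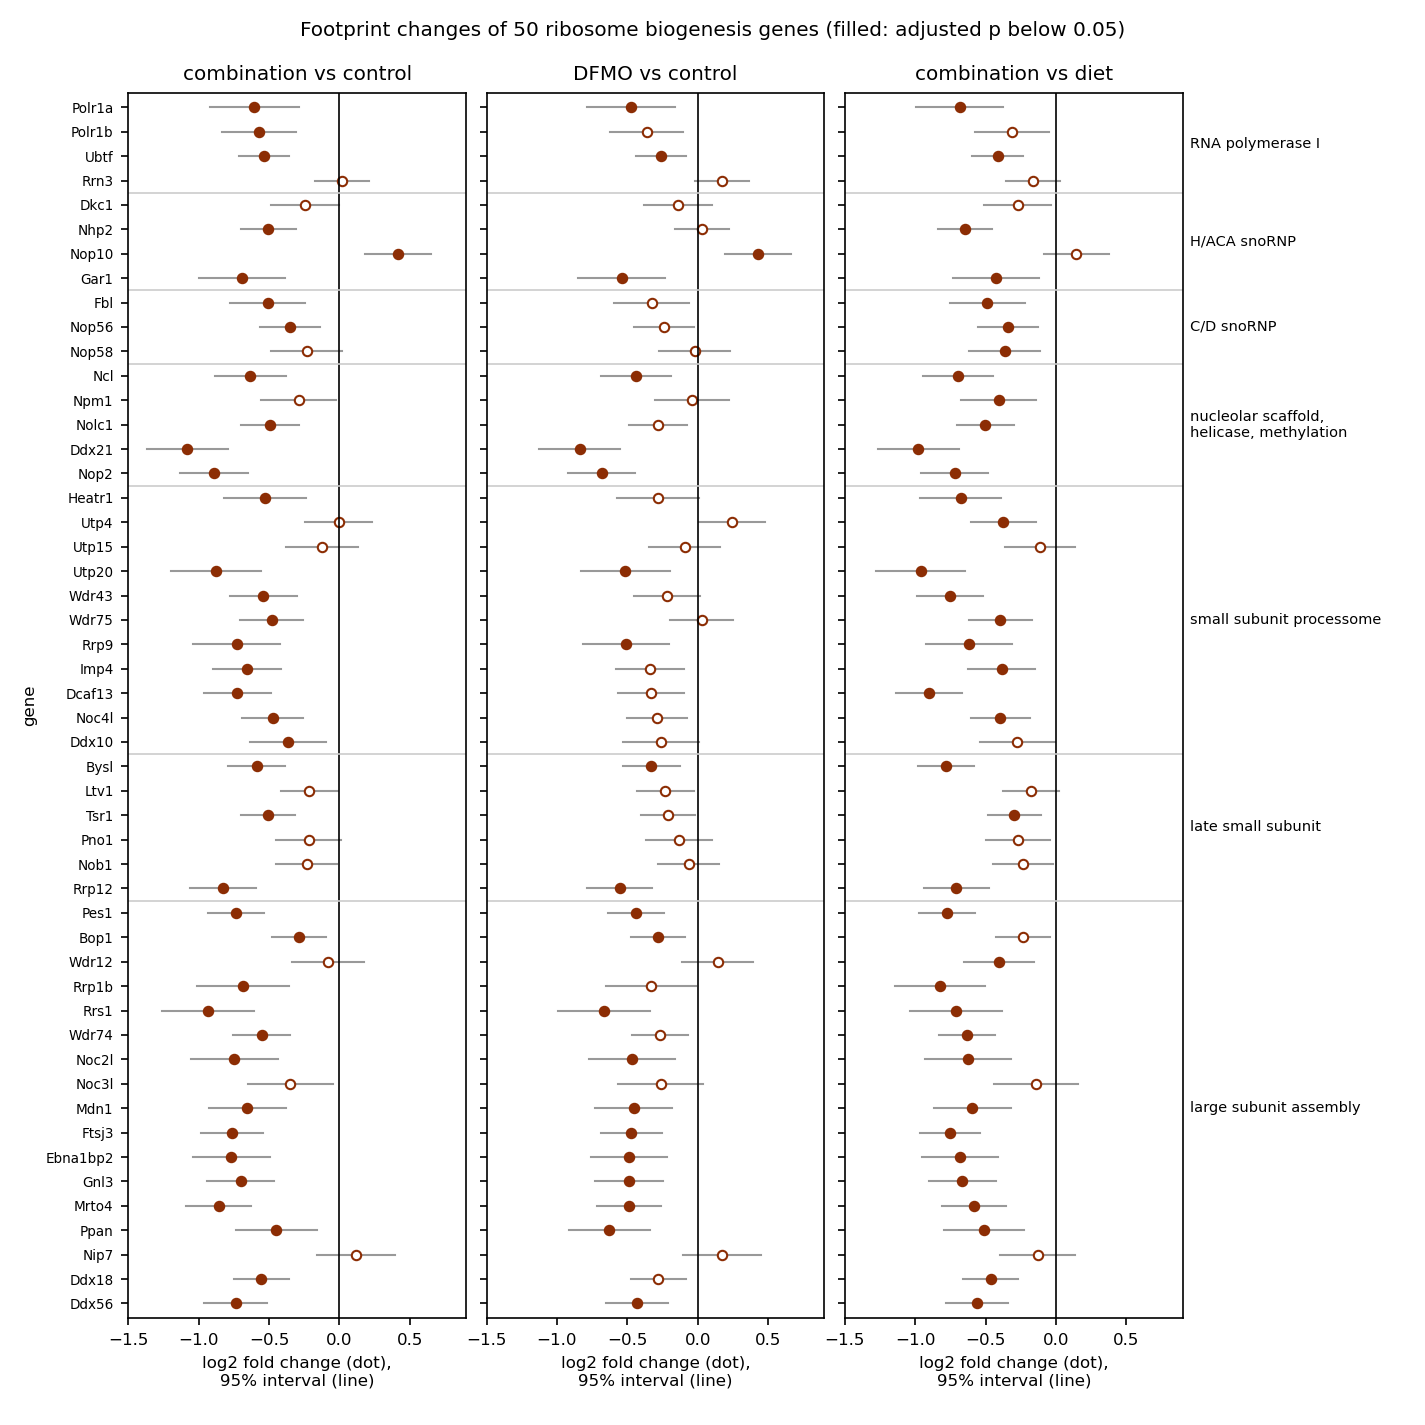
Log2 fold change of footprints (dot) with its 95% interval (line) for 50 genes in combination against control, DFMO against control and combination against diet tumors, where filled dots are adjusted p below 0.05. In the 3 comparisons 38, 22 and 38 dots are filled, and Nop10 is the only filled dot above 0.

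DFMO on the control diet gave 21 of the 50 genes lower and 1 higher than in control tumors, where 8.84% of all genes tested were called lower and 9.24% higher. This comparison shares its 5 control mice with the one above. The median log2 fold change of the 50 was -0.29, against 0.020 for all genes. In 14 of the 50, all DFMO mice were below all control mice (6.07% of all genes). Ddx21 was again the deepest, with 127, 149, 205, 208 and 209.8 CPM in DFMO mice, 1.79-fold lower (log2 fold change -0.84 ± 0.15 (SE), adjusted p = 0.000889). Nop2 had 90.5, 79.4, 113, 92.2 and 101 CPM, 1.60-fold lower (log2 fold change -0.68 ± 0.12 (SE), adjusted p = 0.000979). All DFMO mice were below the control values given above in both genes. Rrp12 (78.3, 77.9, 94.0, 77.2 and 95.7 CPM) was 1.47-fold lower (log2 fold change -0.56 ± 0.12 (SE), adjusted p = 0.00351). Pes1 (117, 108, 126, 106 and 128 CPM) was 1.35-fold lower (log2 fold change -0.44 ± 0.10 (SE), adjusted p = 0.00583). These 2 also stayed clear of the controls. Ppan, a large subunit assembly factor, had 25.5, 36.6, 47.7, 43.3 and 45.9 CPM in DFMO mice, against 63.2, 44.5, 56.8, 73.3 and 70.7 CPM in control mice. Its ranges overlapped, since C5778 was below 2 DFMO mice, and it was 1.55-fold lower (log2 fold change -0.63 ± 0.15 (SE), adjusted p = 0.00588). Nop10 was the gene called higher, with 106, 126, 123, 145 and 129 CPM in DFMO mice, all above the control mice (log2 fold change 0.43 ± 0.12 (SE), adjusted p = 0.0176). By group, 11 of 17 large subunit genes, 3 of 5 scaffold genes, 2 of 4 polymerase genes, 2 of 6 late small subunit genes, 2 of 11 processome genes and 1 of 4 H/ACA genes were called lower, and none of the 3 C/D proteins.

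Among the DFMO mice, D5747 and D5802 had the deepest values (median departures of -0.45 and -0.52 from the control mean over the 50 genes), and D5806, D5823 and D135 had -0.16, -0.28 and -0.20. The count of 22 called genes fell to 14 without C5812, 13 without C5840, 14 without D5747 and 12 without D5802.

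The diet without proline and arginine, given alone, left none of the 50 genes called in footprints by edgeR, as none of all 12095 genes was called (0%). At an unadjusted p below 0.05 there were 1312 genes, 6 of them members, DESeq2 called 0 of the 50 genes, and limma on the deposited RPKM values called 1 of them lower. The median log2 fold change of the 50 genes was -0.010, with 28 of 50 below 0. Ddx21 had 251, 268, 363, 312 and 302 CPM in diet mice, Mrto4 had 232, 206, 256, 234 and 222 CPM and Pes1 had 162, 157, 165, 173 and 158 CPM. The Ddx21 and Pes1 values overlapped those of the control mice. The Mrto4 values were all below the control mice and did not pass the test (log2 fold change -0.28, adjusted p = 0.366).

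Adding DFMO to that diet gave 38 of the 50 genes lower and none higher in combination against diet tumors, where 14.0% of all genes tested were called lower and 14.8% higher. The median log2 fold change was -0.50, and 49 of the 50 were below 0. All combination mice were below all diet mice in 27 genes, against 8.72% of all genes. Bysl had 34.3, 27.1, 31.4, 30.5 and 34.0 CPM in combination mice, against 61.3, 53.7, 59.3, 51.8 and 44.8 CPM in diet mice, and was 1.72-fold lower (log2 fold change -0.78 ± 0.10 (SE), adjusted p = 2.8e-05). Dcaf13 had 43.8, 39.5, 39.1, 31.3 and 37.3 CPM, against 64.0, 64.8, 91.1, 67.7 and 71.1 CPM in diet mice, and was 1.87-fold lower (log2 fold change -0.90 ± 0.12 (SE), adjusted p = 2.94e-05). Both genes were free of overlap, and the diet mouse P5784 stood highest for Dcaf13. Pes1 was 1.71-fold lower (log2 fold change -0.77 ± 0.10 (SE), adjusted p = 2.94e-05). Ftsj3, an RNA methyltransferase of large subunit assembly, had 77.1, 58.6, 64.7, 68.4 and 72.6 CPM in combination mice, against 117, 101, 133, 115 and 110.0 CPM in diet mice, and was 1.69-fold lower (log2 fold change -0.75 ± 0.11 (SE), adjusted p = 7.25e-05). Ddx21 was 1.97-fold lower (log2 fold change -0.98 ± 0.15 (SE), adjusted p = 9.33e-05), and all of these genes were without overlap. Nop10, higher against the control diet, was not called here (0.14, adjusted p = 0.382). DFMO against control and combination against diet share no mouse. Of the 21 genes lower with DFMO on the control diet, 20 were also lower with DFMO on the diet without proline and arginine (95.2% of 21 and 52.6% of 38), and Bop1 was the exception. With 38 of the 50 genes lower in the second comparison, a large overlap follows from that count alone. The overlap over all genes was not counted.

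Between the combination and DFMO groups few members were called. Of the 50, 2 were called lower and none higher, where 3.22% of all genes were called in either direction. The median log2 fold change was -0.22, and 48 of the 50 were below 0. Nhp2 had 54.7, 58.9, 56.7, 48.2 and 53.9 CPM in combination mice, against 81.3, 73.3, 91.5, 76.2 and 73.0 CPM in DFMO mice, and was 1.45-fold lower (log2 fold change -0.54 ± 0.10 (SE), adjusted p = 0.00586). Wdr75 had 66.5, 63.1, 54.2, 50.1 and 55.5 CPM in combination mice, against 101, 66.8, 79.3, 74.6 and 89.99 CPM in DFMO mice, and was 1.42-fold lower (log2 fold change -0.51 ± 0.11 (SE), adjusted p = 0.0159). Neither gene's groups overlapped. Without PD5805 Wdr75 was no longer called (adjusted p = 0.0577), and the count was then 1. The count was 12 without PD5732 and 5 without D5747, the mice whose members departed least and nearly most from the control mean in their groups, and 27 without both, an alternative chosen after these values were seen.

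The test of whether the effect of DFMO depended on the diet called 1 of the 50 genes, where 0.372% of all genes were called. This was Nhp2, whose DFMO effect was -0.65 on the diet without proline and arginine and 0.032 on the control diet (difference -0.68 ± 0.14 SE, adjusted p = 0.022). The diet mice had 85.7, 92.6, 88.2, 83.3 and 77.04 CPM, and every combination mouse lay below all mice of the other 3 groups. The call was lost without C5696, C5840, P5705, P5785 or D5806 in turn, with adjusted p of at most 0.0567 and a difference between -0.73 and -0.62. For the other 49 genes no difference in the DFMO effect between the diets passed the test, which does not show that the effects were equal.

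No footprint comparison called 8 of the 50 genes: Dkc1, Ltv1, Nip7, Nob1, Noc3l, Pno1, Rrn3 and Utp15. Their footprints were 44.4 to 53.6 CPM for Dkc1 and 16.3 to 25.1 CPM for Noc3l in combination mice, against 49.7 to 63.5 and 22.2 to 31.1 CPM in control mice, with overlap in each. Nip7, a large subunit factor, had 28.4 to 35.4 CPM in combination mice, against 20.6 to 37.6 CPM in control mice.

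A wider list of 115 measured ribosome biogenesis genes that are not members was set beside them. Of these, 65 were lower and 2 higher in combination against control tumors (median log2 fold change -0.39), 34 lower and 2 higher with DFMO against control (-0.26), and 68 lower and 1 higher in combination against diet tumors (-0.40). The shares of all genes called lower were 15.5%, 8.84% and 14.0% in the same order, and those called higher 16.7%, 9.24% and 14.8%. None was called with the diet alone. In combination against control tumors the smallest p-values belonged to Ddx54, a helicase of large subunit assembly, at -0.98 ± 0.13 (adjusted p = 1.34e-05) on the log2 scale, Rrp15 at -1.12 ± 0.15 (adjusted p = 1.9e-05) and Aatf, a small subunit factor, at -0.91 ± 0.12 (adjusted p = 2.06e-05). The 2 genes called higher were Gnl3l, a relative of Gnl3, at 0.63 ± 0.12 (adjusted p = 0.000643), and C1d, a cofactor of the nuclear exosome, at 0.79 ± 0.19 (adjusted p = 0.00277). With DFMO, Ddx54 was -0.81 ± 0.12 (adjusted p = 0.000349), Rbm28 -0.71 ± 0.12 (adjusted p = 0.000946) and Nol6 -0.55 ± 0.11 (adjusted p = 0.00177), and C1d at 0.72 ± 0.19 (adjusted p = 0.011) and Taf1d at 0.55 ± 0.19 (adjusted p = 0.0454) were higher. By role, in combination against control tumors, 24 of 40 small subunit genes, 23 of 42 large subunit genes, 10 of 14 exosome genes, 5 of 8 snoRNP assembly genes and 3 of 11 further polymerase I genes were lower. The list was chosen with earlier results of these data known.

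In RNA, more of the 50 genes were called lower than higher in both DFMO-treated groups, relative to the bulk of genes. In combination against control tumors 28 were called lower and 2 higher, where 17.7% of 14280 genes were lower and 23.1% higher. In DFMO against control tumors 27 were lower and 4 higher, where 17.5% and 21.9% of all genes were. Without all 7 doubted libraries 13 were lower and none higher in the combination (2.33% of all genes lower and 3.28% higher), and 5 were lower and none higher with DFMO (1.22% and 1.94%). Those fits kept C5812 as the only control RNA library, so their spread came from the other groups. With all libraries, the median log2 fold change was -0.77 with the combination and -0.75 with DFMO, against 0.31 and 0.28 for all genes. The members thus lay below the bulk of genes. On the deposited RPKM values, which carry no further scaling, the medians of the 50 genes were 0.17 and 0.27 against 1.29 and 1.35 for all genes, with 10 lower and 11 higher in the combination and 10 lower and 12 higher with DFMO. On that scale 5.13% of all genes were lower and 53.7% higher in the combination, and 4.27% lower and 57.4% higher with DFMO. The RNA direction is therefore one relative to other genes. Of raw RNA counts, the 50 genes took 1.07% ± 0.055 in combination tumors and 1.06% ± 0.040 in DFMO tumors (SD, n = 5 each). The share was 1.25% ± 0.107 in diet tumors (n = 5) and 1.28% ± 0.14 in control tumors (n = 4). The mean summed CPM, scaled by TMM, were 9008, 8342, 13850 and 21050 in the same order. In combination against diet tumors 20 were lower and 1 higher, where 8.68% of all genes were lower and 9.03% higher.

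Marker sums in RNA, of neuroblasts and of other cell types, are given without a test. Neuroblast markers (11 genes) summed to 1983 to 2791 CPM in combination, 1982 to 2688 in DFMO, 1309 to 1854 in diet and 1022 to 2497 in control tumors. Every mouse of both DFMO-treated groups was above every diet mouse in this sum. Erythroid markers summed to 2559 to 27830 CPM in combination, 1032 to 3705 in DFMO, 16620 to 279500 in diet and 5271 to 125700 in control tumors. Schwann cell markers (Foxd3 at 0 in all control libraries) summed to 23.9 to 50.7, 18.1 to 27.96, 3.82 to 20.2 and 5.34 to 15.6 CPM in the same order. Exocrine pancreas markers (Prss2 and Cela3b at 0 in all control libraries) summed to 51.55 to 719, 10.2 to 19.66, 13.3 to 46.1 and 5.13 to 9.39 CPM. Endothelial sums were 111.4 to 161.4, 80.6 to 107.9, 136.7 to 258.9 and 143.9 to 329 CPM, and those of macrophage, fibroblast, and T and B cell markers overlapped the controls in the combination. DFMO tumors did not overlap control tumors in the erythroid, Schwann cell, exocrine pancreas and endothelial sums, nor combination tumors in the Schwann cell and exocrine pancreas sums. The part of these cells in the RNA results was not tested.

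In TMM-scaled CPM, the RNA of Pes1 stood clear of the controls. It had 79.1, 81.0, 72.8, 77.9 and 90.4 CPM in combination mice, against 154, 170.3, 171 and 147 CPM in control mice. It was 2.00-fold lower (log2 fold change -1.001 ± 0.19 (SE), adjusted p = 0.000644), and -0.073 on the unscaled RPKM values (adjusted p = 0.811), and without all 7 doubted libraries it was -0.89 (adjusted p = 0.0667). Against diet mice, at 133, 106, 198, 175 and 177 CPM, Pes1 was 1.97-fold lower (log2 fold change -0.98 ± 0.18 (SE), adjusted p = 0.000981). Ddx21 RNA, with 46.9, 44.5, 46.5, 42.2 and 51.8 CPM in combination mice and 79.8, 68.5, 80.3, 73.7 and 86.1 CPM in diet mice, did not overlap either and was 1.67-fold lower (log2 fold change -0.74 ± 0.16 (SE), adjusted p = 0.00295). Rrp12 and Noc4l, a processome protein, were lower than in diet tumors too (-1.25 and -0.89, adjusted p = 0.000882 and 0.00302). On unscaled RPKM values none of the calls of Pes1, Ddx21, Rrp12 and Noc4l against the diet held (adjusted p = 0.115, 0.363, 0.0533 and 0.244). Rrp1b was -1.89 ± 0.35 SE (adjusted p = 0.00115) against the diet. Without the 4 low-complexity libraries, combination against diet gave 30 genes lower and 1 higher, where 17.0% of all genes were lower. Without the 3 libraries unlike their footprints it gave 9 lower and none higher, where 2.64% of all genes were lower and 4.38% higher.

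Several genes had their highest RNA values in the low-complexity libraries. Gnl3 had 208, 191, 159, 208 and 227 CPM in combination mice, 154, 172, 177, 179 and 166 CPM in DFMO mice and 767, 1315, 2034 and 397 CPM in the control mice C5696, C5778, C5781 and C5812. It was 5.68-fold lower (log2 fold change -2.51 ± 0.46 (SE), adjusted p = 0.000572) in combination and 6.64-fold lower (log2 fold change -2.73 ± 0.46 (SE), adjusted p = 0.000377) in DFMO tumors. Without the 4 libraries, which leaves C5812 as the only control with RNA and assumes that it varies like the other groups, Gnl3 was 2.03-fold lower (log2 fold change -1.02 ± 0.23 (SE), adjusted p = 0.0087) in combination tumors and 2.34-fold lower (log2 fold change -1.23 ± 0.23 (SE), adjusted p = 0.00275) in DFMO tumors. Rrp1b, a large subunit factor, had 33.0, 32.2, 34.4, 27.5 and 37.2 CPM in combination mice, against 120.0, 147, 303 and 75.5 CPM in control mice, and was 4.89-fold lower (log2 fold change -2.29 ± 0.37 (SE), adjusted p = 0.000259). Without the 4 libraries Rrp1b was 2.33-fold lower (log2 fold change -1.22 ± 0.26 (SE), adjusted p = 0.00614). With DFMO it was -2.23 ± 0.37 SE (adjusted p = 0.000334), and -1.14 (adjusted p = 0.00876) without the 4. No combination or DFMO value of these genes reached C5812, the control library that is not of low complexity. Rrp9 and Ebna1bp2 showed the same order, at -2.18 and -1.95 in combination tumors with all libraries (adjusted p = 0.000495 and 0.000593) and -0.99 and -0.97 without the 4. Ebna1bp2 with DFMO was -2.12 ± 0.36 SE (adjusted p = 0.000407), and -1.12 (adjusted p = 0.00783) without the 4. Fbl and Nop58 fell with DFMO (-1.54 and -1.46, adjusted p = 0.000767 and 0.000829), and without all 7 doubted libraries neither was called (adjusted p = 0.203 and 0.0979). How the low-complexity libraries came about, and their part in these folds, was not tested.

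**Figure D4:**
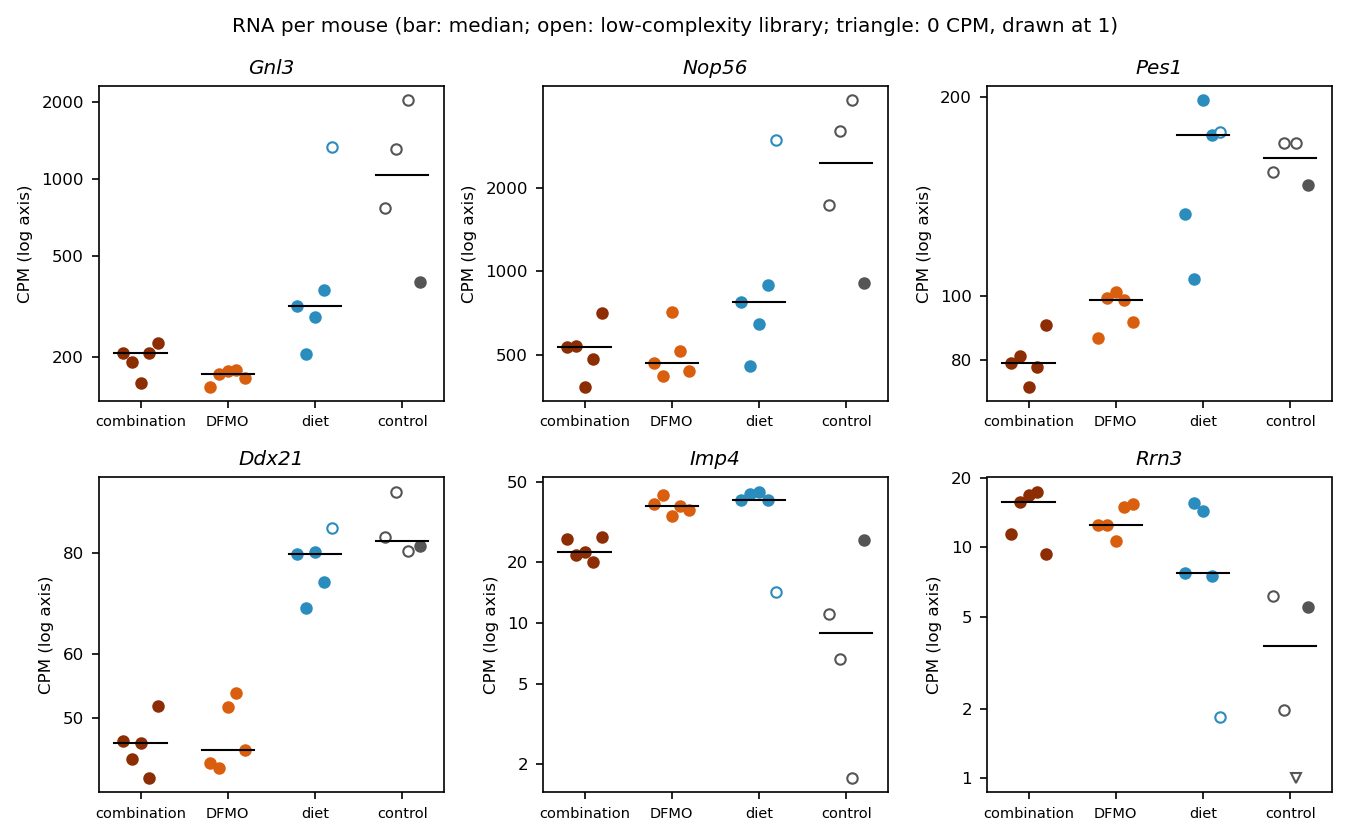
RNA CPM of 6 genes on log axes, 1 point per mouse, with the group median as a bar, low-complexity libraries as open points and 0 CPM as a triangle drawn at 1. The open points are the 4 highest for Gnl3 and Nop56 and the 4 lowest for Imp4, and the 3 lowest Rrn3 points are open.

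Against the majority, Rrn3 and Nob1 RNA were called higher in combination and in DFMO tumors, and Imp4 and Bop1 in DFMO tumors. Rrn3 had 11.4, 15.7, 16.8, 17.4 and 9.34 CPM in combination mice, 12.5, 12.5, 10.6, 14.9 and 15.3 CPM in DFMO mice and 6.13, 1.98, 0 and 5.51 CPM in control mice. It was 3.90-fold higher (log2 fold change 1.96 ± 0.58 (SE), adjusted p = 0.012) in combination tumors, a fitted value that includes 1 library at 0 and is no bound. The treated mice were all above the controls. Imp4 had 38.6, 42.8, 33.9, 37.99 and 36.4 CPM in DFMO mice, 40.7, 43.6, 44.6, 40.6 and 14.2 CPM in diet mice and 11.1, 6.63, 1.70 and 25.8 CPM in control mice. Its lowest values were again in low-complexity libraries, and it was 3.25-fold higher (log2 fold change 1.70 ± 0.45 (SE), adjusted p = 0.00639) with DFMO. With DFMO, Rrn3 was 1.86 ± 0.58 SE (adjusted p = 0.0161), Nob1 0.74 ± 0.26 SE (adjusted p = 0.0289) and Bop1 0.63 ± 0.24 SE (adjusted p = 0.0383). Without the 4 libraries the DFMO effects on Imp4, Rrn3, Nob1 and Bop1 were 0.55, 1.25, 0.39 and 0.27 and none was called (adjusted p = 0.0816, 0.0549, 0.24 and 0.412). For Nob1 in combination tumors the log2 fold change was 0.71 (adjusted p = 0.0343) and 0.35 without the 4 (adjusted p = 0.302). Single mice ended some of these calls: Rrn3 with DFMO without C5778 (adjusted p = 0.0567), Nob1 without C5781 among others (at most 0.0808 in combination and 0.0616 with DFMO), and Bop1 without C5778 among others (at most 0.0947).

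With the diet alone, 1 of the 50 genes was called in RNA, where 3.40% of all genes were. It was Imp4 (log2 fold change 1.66 ± 0.45 (SE), adjusted p = 0.0477), which was no longer called in 16 of 19 fits that left out 1 mouse, with adjusted p up to 0.136. The median of the 50 was -0.072. The count itself was 25 without P5828 and 10 without C5812. In combination against DFMO tumors edgeR called none of the 50 in RNA, where 5.13% of all genes were called. There 3 members and 2329 of 14280 genes had an unadjusted p below 0.05. DESeq2 called 3 members, and 863 of all genes higher and 577 lower. The test of whether the DFMO effect on RNA depended on the diet called 2, where 5.94% of all genes were. These were Imp4 (-2.36 ± 0.60 SE, adjusted p = 0.0283) and Bop1 (-1.18 ± 0.32 SE, adjusted p = 0.0364). Leaving out 1 mouse ended the Imp4 call in 6 of 19 fits and the Bop1 call in 13 of 19, with adjusted p up to 0.067 and 0.0771, and the count was 15 without P5828. Mdn1 was the member higher in combination than in diet tumors (log2 fold change 0.76 ± 0.26 (SE), adjusted p = 0.0495), a call lost in 15 of 19 such fits (adjusted p up to 0.21).

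Translational efficiency, the footprint change over the RNA change of the same gene, was tested as an interaction of assay and treatment over 39 libraries and 11847 genes. In combination against control tumors 14 of the 50 genes were called higher and 6 lower, where 13.8% of all genes were higher and 16.7% lower. With DFMO 20 were higher and 7 lower, where 15.3% and 18.3% of all genes were. The median log2 difference of the 50 was 0.26 and 0.35, against -0.23 and -0.21 for all genes. Without the 4 low-complexity RNA libraries none was higher and 1 lower in the combination, where 2.43% of all genes were higher and 3.16% lower, and 5 were higher and 2 lower with DFMO, where 5.22% and 5.65% were. The combination counts were near these shares. The fits without those libraries kept C5812 as the only control RNA library. On unscaled RPKM values 2 were higher and 21 lower in the combination and 4 higher and 23 lower with DFMO (medians -0.70 and -0.75, against -1.17 and -1.35 for all genes), so the sign of the efficiency change depended on the scaling. On that scale 3.65% of all genes were higher and 44.9% lower in the combination, and 3.23% higher and 53.5% lower with DFMO, so the members' lower counts were near those shares. With the mouse as a block, 10 were higher and 6 lower in the combination (11.3% of all genes higher and 16.9% lower), and 15 higher and 6 lower with DFMO (12.8% and 18.7%).

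Gnl3, Nop56 and Rrp1b, all with lower RNA in combination tumors, were called higher in efficiency. Gnl3 was 1.86 ± 0.49 SE in the combination (adjusted p = 0.0055) and 0.29 without the 4 libraries (adjusted p = 0.54). Nop56, whose RNA was 385 to 710.1 CPM in combination mice, against 1732, 3187, 4123 and 911 CPM in control mice, was 1.94 (adjusted p = 0.00419) and 0.43 without the 4 (adjusted p = 0.44). Rrp1b was 1.66 and 0.51 without them (adjusted p = 0.00475 and 0.374). Rrn3 was lower in efficiency, at -1.86 (adjusted p = 0.00567), and -1.34 without the 4 (adjusted p = 0.0207). It was the 1 gene still called in the combination there. Of the others called lower, Mdn1 was -1.15 ± 0.30 SE (adjusted p = 0.00541), Imp4 -1.61 ± 0.43 SE (adjusted p = 0.00614) and Nob1 -0.91 ± 0.26 SE (adjusted p = 0.00991). Leaving out the 4 libraries gave -0.98 (adjusted p = 0.14), -0.51 (adjusted p = 0.202) and -0.60 (adjusted p = 0.112).

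With DFMO the smallest p-values in efficiency belonged to Gnl3 at 2.31 ± 0.49 SE (adjusted p = 0.000846), Nop58 at 1.49 ± 0.32 SE (adjusted p = 0.000881), Imp4 at -2.001 ± 0.43 SE (adjusted p = 0.000965), Rrp1b at 1.95 ± 0.42 SE (adjusted p = 0.00103) and Nop56 at 2.102 ± 0.49 SE (adjusted p = 0.00172). Without the 4 libraries Nop58 at 0.83 (adjusted p = 0.0296) and Imp4 at -0.91 (adjusted p = 0.0137) were still called. Gnl3 at 0.72 (adjusted p = 0.0622), Rrp1b at 0.79 (adjusted p = 0.104) and Nop56 at 0.57 (adjusted p = 0.223) were not. Bop1, Rrn3 and the methyltransferase Ftsj3 were also lower in efficiency with DFMO, at -0.89 ± 0.24 SE (adjusted p = 0.00492), -1.61 ± 0.49 SE (adjusted p = 0.0118) and -0.58 ± 0.19 SE (adjusted p = 0.0165). Without the 4 libraries Rrn3 was -1.101 (adjusted p = 0.0378), and Bop1 at -0.57 (adjusted p = 0.071) and Ftsj3 at -0.57 (adjusted p = 0.0972) were not called.

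Relative to other genes, as for the members, the wider list of 115 genes had 50 lower and 5 higher in RNA of combination against control tumors, and 51 lower and 6 higher with DFMO. Of all genes, 17.7% were lower and 23.1% higher in the combination, and 17.5% lower and 21.9% higher with DFMO. These list counts are with all RNA libraries. Nom1, Aatf and the large subunit factor Brix1 had the smallest p-values among the lower ones in the combination, at -1.495 ± 0.24 (adjusted p = 0.000228), -1.21 ± 0.20 (adjusted p = 0.000309) and -2.08 ± 0.36 (adjusted p = 0.000406). Leaving out the 4 libraries gave -0.92 (adjusted p = 0.00289), -0.77 (adjusted p = 0.0213) and -1.18 (adjusted p = 0.00268). Among the higher ones, Gnl3l was 3.08 ± 0.64 (adjusted p = 0.00126), a fitted value that includes 1 control library at 0, Rcl1 1.48 ± 0.41 (adjusted p = 0.0083) and Rrp7a 1.199 ± 0.39 (adjusted p = 0.0189). These were 2.98 (adjusted p = 0.00759), 1.29 (adjusted p = 0.0203) and 0.22 (adjusted p = 0.52) without the 4. With DFMO, Mphosph10 was -1.43 ± 0.21 (adjusted p = 0.000118), Nom1 -1.62 ± 0.24 (adjusted p = 0.000137) and the exosome subunit Exosc3 -1.85 ± 0.28 (adjusted p = 0.0002), and without the 4 they were -1.22 (adjusted p = 0.00162), -1.02 (adjusted p = 0.00147) and -1.29 (adjusted p = 0.00277). Higher with DFMO were Rrp15 at 1.15 ± 0.29 (adjusted p = 0.0045), Taf1c at 0.95 ± 0.24 (adjusted p = 0.00462) and Nol11 at 1.23 ± 0.36 (adjusted p = 0.011), of which Taf1c was still called without the 4, at 0.89 (adjusted p = 0.0403).

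In efficiency, 13 of the 115 genes were lower and 22 higher in combination against control tumors, and 10 lower and 39 higher with DFMO. Of all genes, 16.7% were lower and 13.8% higher in the combination, and 18.3% lower and 15.3% higher with DFMO. For this list the counts are given with all libraries only. In the combination Rrp15 was -1.65 ± 0.31 (adjusted p = 0.000505), Gnl3l -2.37 ± 0.51 (adjusted p = 0.00148) and Rcl1 -1.82 ± 0.41 (adjusted p = 0.00185), and all 3 were still called without the 4 libraries, at -1.05 (adjusted p = 0.0463), -2.38 (adjusted p = 0.00768) and -1.69 (adjusted p = 0.00321). Emg1, a small subunit methyltransferase, was 1.59 ± 0.32 (adjusted p = 0.000866), Taf1d 2.095 ± 0.44 (adjusted p = 0.00105) and Brix1 1.60 ± 0.40 (adjusted p = 0.00418). Without the 4 these were 1.01 (adjusted p = 0.0232), 0.91 (adjusted p = 0.0803) and 0.63 (adjusted p = 0.157). With DFMO, Rrp15 was -1.76 ± 0.31 (adjusted p = 0.000166), Ddx54 -1.07 ± 0.25 (adjusted p = 0.00191) and Taf1c -1.24 ± 0.30 (adjusted p = 0.00232), and without the 4 they were -1.18 (adjusted p = 0.0174), -0.95 (adjusted p = 0.0501) and -1.25 (adjusted p = 0.0285). Taf1d, Emg1 and Brix1 were higher with DFMO, at 2.68 ± 0.44 (adjusted p = 9.35e-05), 1.73 ± 0.32 (adjusted p = 0.000282) and 2.08 ± 0.40 (adjusted p = 0.000397), and were still called without the 4, at 1.48 (adjusted p = 0.00303), 1.13 (adjusted p = 0.00751) and 1.09 (adjusted p = 0.00717).

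Mdn1 had lower efficiency in combination against diet tumors, the 1 member called there (log2 fold change -1.36 ± 0.29 (SE), adjusted p = 0.0108), where 0.152% of all genes were lower and 0.582% higher. Its footprints were 148, 106, 94.0, 116 and 94.7 CPM in combination mice, against 178, 165, 139.7, 174 and 188 CPM in diet mice, and its RNA was 38.9, 30.3, 29.9, 59.7 and 21.7 CPM in combination mice, against 25.8, 28.5, 16.8, 18.0 and 17.3 CPM in diet mice. Every combination mouse but PD5732 was below all diet mice in footprints, and all combination mice were above the median diet mouse in RNA. The call was lost without P5785 or PD5805 (adjusted p up to 0.0568) and on unscaled RPKM values (adjusted p = 0.236). With the diet alone Imp4 (-1.87, adjusted p = 0.0149) and Bop1 (-0.82, adjusted p = 0.0357) were lower, where 6.03% of all genes were called, and Bop1 was not called with the mouse as a block (adjusted p = 0.0644). The Imp4 call was lost without P5705 or P5784 (adjusted p up to 0.0616), and the count was 23 without P5828. No member was called in combination against DFMO tumors (0% of all genes, and DESeq2 also 0 members). There 4 members and 416 of 11847 genes had an unadjusted p below 0.05. None was called in the test of the diet's influence on the DFMO effect, where 0.777% of all genes were called. In that test 11 members and 2325 of 11847 genes had an unadjusted p below 0.05. DESeq2 called 4 members there, and 563 of all genes higher and 240 lower.

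**Figure D5:**
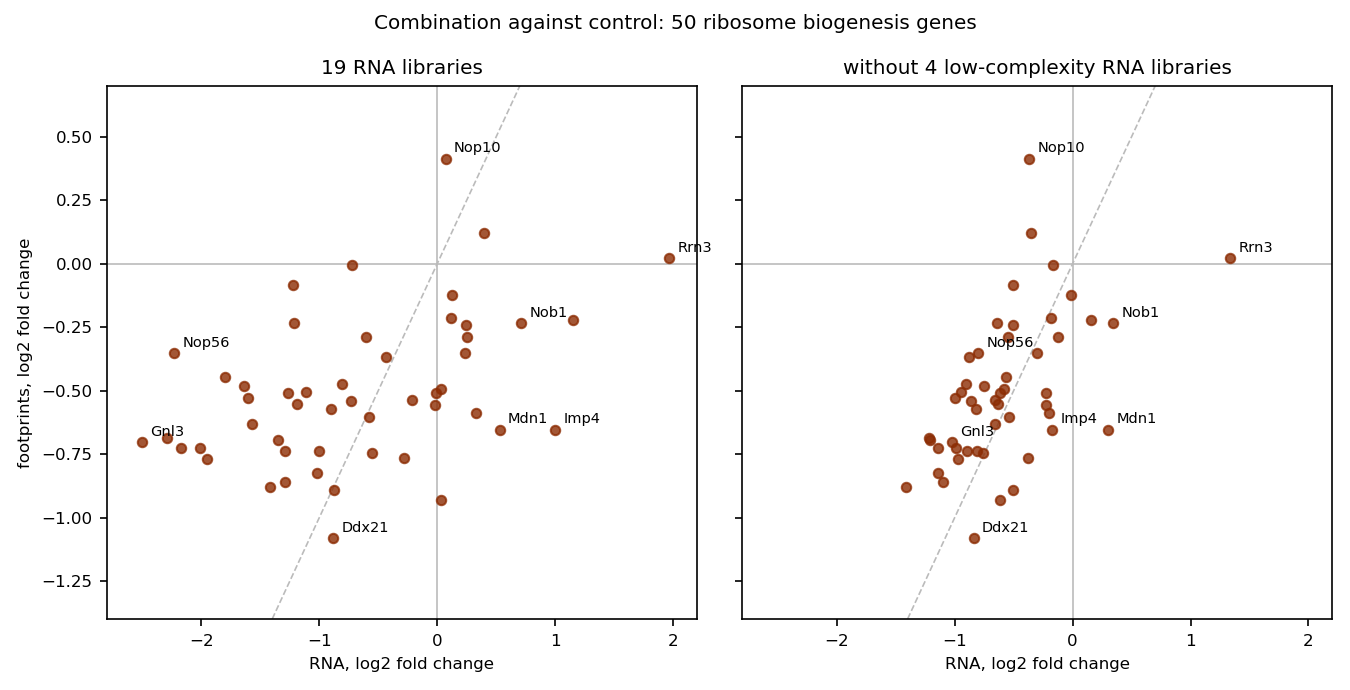
Log2 fold change of RNA (x axis) and footprints (y axis) in combination against control tumors, 1 point per gene, with all 19 RNA libraries (left) and without the 4 low-complexity ones (right). The dashed line marks equal change. RNA values spread from -2.51 to 1.96 on the left and from -1.41 to 1.34 on the right.

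Levels per length differed widely among the genes. In control tumors, footprint RPKM (reads per kilobase and sequencing depth, as deposited) was highest for Npm1 (3604), Ncl (681), Fbl (508), Nop10 (481) and Mrto4 (390.4), and lowest for Mdn1 (10.6), Noc3l (10.6), Ddx10 (13.7) and Heatr1 (14.3). In combination tumors these levels were 3063, 456, 372, 674 and 224 RPKM for the first 5 genes and 7.001, 8.73, 11.1 and 10.2 RPKM for the last 4. Nop10 was the second highest there, after Npm1.

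Of the 50 genes, 8 hold snoRNA genes on their own strand in the GENCODE M21 annotation: Dkc1, Nop56, Nop58, Ncl, Wdr43, Tsr1, Gnl3 and Ppan. Nop56 holds 5 of them, Nop58 holds 4, and Ncl, Wdr43 and Gnl3 hold 3 each. In footprints these hosts were close to the other members, with median log2 fold changes of -0.48 for the 8 and -0.55 for the other 42 in combination against control tumors. In RNA the medians were -1.39 and -0.66 with all libraries, and -0.65 and -0.62 without the 4 low-complexity libraries. Gnl3 (chr14:31012433-31019152, minus strand) and Nop56 (chr2:130274430-130279313, plus strand) had the deepest RNA falls among the hosts. No test was made of this split. Whether reads were counted by strand or at several positions is not given in the sources used here, so reads of a snoRNA and of its host gene may not be told apart in the host values.

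The coding sequences of the 50 genes were rich in lysine codons. The median share was 7.81% of codons, against 5.71% for 12044 genes tested in footprints, and 41 of the 50 lay above that median. Of the 2 amino acids removed from the diet, proline codons made up 4.98% (median of tested genes 5.43%) and arginine codons 5.86% (5.57%). Codons ending in A made up 20.7% (17.8%).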

How the data were processed

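Tumors of 20 TH-MYCN mice gave 20 footprint and 19 RNA libraries; per the labels' protocols, both came from 1 extract, lysed with cycloheximide, with footprints made by RNase I. The authors deposited 1 table of raw read counts and 1 of RPKM per transcript, and the submitters' processing notes name cutadapt, Bowtie2, HISAT2 and GRCm38. Their versions, and the handling of strand and multimapping, stay unstated there.

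Counts were tested with edgeR 4.0.16 (R 4.3.3; robust quasi-likelihood F test, TMM within assay, filterByExpr, all groups in 1 fit, Benjamini-Hochberg adjusted over all genes, called below 0.05). The efficiency test was the assay by group interaction term. The SE is the log2 fold change over the root of F, and intervals are 1.96 SE. CPM are scaled by TMM. Alternatives were DESeq2 1.42.0, limma 3.58.1 on log2(RPKM + 0.1), which understates changes of low genes, RLE scaling, no filter, thinned footprints, left-out libraries and the mouse as a block. The code was tested on simulated data.

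The members and lists were chosen with earlier results of these data known. The text names 2 genes per role with the smallest p, 5 per other comparison and assay, up to 4 called against the majority and 3 each way of the wider list; further members are given to complete a group. Footprint and RNA libraries of 1 mouse are paired per the labels; their deviations from group means correlated at r = -0.32 to 0.58, over 0.1 in 9 of 19 mice. In footprints and in RNA, p-values measure the spread between mice. The main efficiency fit takes the 39 libraries as independent, so its p-values leave out the pairing. Some marker genes are not reported here and are left out of the marker sums.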

Additional observations from a re-analysis of the deposited data

Results flagged for a closer look

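For 15 of the genes, and for the median departure of the 50 genes, 15 of 128 groups of 4 or 5 values held a sample far from the others by Dixon's criterion, which chance gives in about 1 of 20 groups. The other 35 genes were not examined this way. In footprints, the combination mouse PD5732 was high for Fbl (428.3 CPM, others 317.7 to 347.5), Mrto4 (194.9 CPM, others 133.6 to 149.2) and Utp20 (105.5 CPM, others 53.3 to 63.2). Its median log2 departure from the control mean over the 50 genes was -0.254, against -0.609 to -0.566 in the other combination mice. A further 3 footprint values stood apart: Dcaf13 in the diet mouse P5784 (91.07 CPM, others 64.0 to 71.1), Rrp12 in the diet mouse P5702 (148.5 CPM, others 98.5 to 112) and Nop2 in the control mouse C5778 (140.1 CPM, others 154.5 to 159).

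In RNA, the low-complexity diet library P5828 was high for Nop56 (2963 CPM, others 456 to 893), Dcaf13 (415.5 CPM, others 62.8 to 109), Gar1 (274.7 CPM, others 71.6 to 114) and Polr1b (94.12 CPM, others 43.5 to 53.6), and low for Bysl (31.24 CPM, others 47.9 to 52.9). The low-complexity control library C5781 was high for Dcaf13 (435.8 CPM, others 113 to 156) and Gar1 (167.7 CPM, others 115 to 124). Gar1 was also high in the combination mouse PD5825 (68.13 CPM, others 42.6 to 49.5). These CPM are scaled by TMM. As a share of raw library counts, Polr1b in P5828 (714 of 17354972) was the lowest of the diet mice. On that share Gar1 in P5828 and in C5781 lay within the range of the other mice of its group. The other RNA values named here remained the highest or lowest of their groups.

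The DFMO effect was called different between the diets, by the interaction term of edgeR, for Nhp2 footprints (-0.677, adjusted p = 0.022), Imp4 RNA (-2.364, adjusted p = 0.0283) and Bop1 RNA (-1.18, adjusted p = 0.0364). Of all genes, 0.372% were called in footprints and 5.94% in RNA. Leaving out 1 mouse ended the Nhp2 call in 5 of 20 fits, the Imp4 call in 6 of 19 and the Bop1 call in 13 of 19. Both RNA calls were lost without the 3 libraries unlike their footprints.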

How the results depend on the processing

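On unscaled RPKM the balance over the 50 genes turned in both DFMO-treated groups. Of the genes called in RNA, 7 of 30 in combination and 12 of 31 in DFMO against control had the opposite sign there, as did 3 of 20 and 6 of 27 in efficiency; 0 of these passed the test with the opposite sign, and 0 genes called in footprints changed sign. In efficiency, combination against control had 2 higher and 21 lower (main scaling 14 and 6) and DFMO against control 4 and 23 (20 and 7), and in RNA the medians were 0.17 and 0.27 (-0.77 and -0.75). In footprints, the counts for combination against control (38), combination against diet (38) and DFMO against control (22) stayed within 1.5 times under every alternative that kept all mice; leaving out 1 mouse gave 12 to 27 for DFMO against control. Combination against DFMO (2) gave 7 with DESeq2, 1 with limma on RPKM, 27 without the footprints of PD5732 and D5747 (chosen after seeing the data) and 1 to 12 without 1 mouse. The diet alone (0) gave 1 with limma on RPKM. The interaction of diet and DFMO (1) gave 0 with limma on RPKM, 9 without PD5732 and D5747 and 0 to 2 without 1 mouse.

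In RNA, DFMO against control (31) gave 20 without the 3 libraries unlike their footprints and 5 without all 7 doubted libraries. Combination against control (30) gave 13 without the 7. Combination against diet (21) gave 9 with limma on RPKM and 9 without the 3. Combination against DFMO (0) gave 3 with DESeq2, 1 with RLE scaling, 1 with limma on RPKM, 10 without the 4 low-complexity libraries, 2 without the 7 and 0 to 2 without 1 mouse. The diet alone (1) gave 11 with DESeq2, 3 with RLE scaling, 2 with limma on RPKM, 0 with no filter, 0 without the 3, the 4 or the 7, and 0 to 25 without 1 mouse. The interaction (2) gave 7 with DESeq2, 0 without the 3, 4 without the 4, 1 without the 7 and 0 to 15 without 1 mouse.

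In efficiency, DFMO against control (27) gave 7 without the 4 and 3 without the 7. Combination against control (20) gave 1 without the 4, 1 without the 7 and 11 to 25 without 1 mouse, with 13 without C5778 and 11 without C5781. Combination against diet (1) gave 0 with limma on RPKM, 2 without the 4 and 0 to 1 without 1 mouse. The diet alone (2) gave 7 with DESeq2, 15 with limma on RPKM, 1 with TMM over both assays together (chosen after seeing the data), 1 without the 3, 1 without the 4, 0 without the 7 and 0 to 23 without 1 mouse. The interaction (0) gave 4 with DESeq2, 3 with RLE scaling, 2 with limma on RPKM, 5 without the 4, 2 without the 7 and 0 to 17 without 1 mouse. With the mouse as a replicate block over 38 paired libraries, combination against control gave 16, DFMO against control 21 and the diet alone 1, and the same 38 libraries with no replicate block gave 17, 24 and 1. The cause of these shifts was not tested. Control footprint libraries were among the shallowest, and without the 4 low-complexity libraries 1 control RNA library remained.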
